A study of Mus musculus with 24 samples.

Results

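The genes described here are 10 genes of autophagy in mouse oocytes and early embryos: *Ambra1*, *Becn1* and *Ulk1*, which act at initiation, *Atg5* and *Atg7*, which act in conjugation, the Atg8-family genes *Map1lc3a*, *Map1lc3b* and *Gabarapl1*, the cargo receptor gene *Sqstm1* and the transcription factor gene *Tfeb*. They were taken by symbol, all 10 matched an Ensembl gene, and they are 10 of the 55471 genes of the count table. The list was chosen with measured values in view: *Ambra1* was selected on its IP enrichment, because its level in the m6A immunoprecipitate (IP) relative to input rose from late 1-cell (L1C) to late 2-cell (L2C) embryos. That rise, and every other value of *Ambra1* that rests on L1C or L2C libraries of the m6A experiment, is therefore given as a description with no test.

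All animals were wild-type B6D2F1 (C57BL/6J x DBA/2N) mice, and oocytes came from superovulated females. SLIM-seq, an m6A RNA IP for small samples, was made on pooled MII oocytes, L1C embryos and L2C embryos, with 3 IP and 3 input libraries per stage, the inputs being RNA of the same batches without IP. In the knockdown experiment zygotes received by injection either Cas13d mRNA together with 3 crRNAs that target *Ythdc1* (KD) or Cas13d mRNA alone (Ctrl, labelled NC), and 3 libraries of each were made at L2C. Cas13d is an RNA-cutting enzyme that a crRNA guides to its target, so the Ctrl embryos carry the enzyme and no guide. No uninjected group and no non-targeting crRNA is part of the comparison. *Ythdc1* encodes a nuclear protein that binds m6A. No source used here says whether libraries of a group came from separate collections, so p-values measure the spread between these libraries, which may in part be technical.

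Autophagy encloses part of the cytoplasm in a double membrane and delivers it to the lysosome. The ULK kinase complex starts the process, and a lipid kinase complex around Beclin 1, to which Ambra1 binds, marks the membrane. An enzyme chain with Atg7 at its head and the Atg5 conjugate at its end attaches Atg8 proteins to the lipid, and receptors such as Sqstm1 (p62) bring cargo to them. In mouse, autophagy is induced soon after fertilization, and embryos without maternal and zygotic Atg5 die before implantation. m6A sits mostly on the middle A of motifs such as GGACT and is placed preferentially near stop codons and in long exons.

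GGACT was searched in the longest coding transcript of each gene (GENCODE M21, sense strand). It occurred at least once in 87.6% of 21877 protein-coding genes, with a median of 1.01 per kb and quartiles of 0.561 and 1.5. *Sqstm1* had 7 sites, 6 of them in the 3' UTR, and *Ambra1* had 9, 7 of them in the coding sequence. *Gabarapl1* (2.75 per kb) and *Sqstm1* (2.62 per kb) had the highest densities of the 10, and *Map1lc3a* had 0 sites in 1112 bases. *Becn1* and *Atg5* had 2 each. The 5 windows that follow show the site nearest the stop codon in the members whose IP differed from input at MII, with GGACT in capitals. A match is a sequence feature and no measurement of m6A at that base.
Ambra1: cctctcgaGGACTgccatcag
Sqstm1: ttaagaggGGACTgtccatag
Becn1: gcttttctGGACTgtgtgcag
Atg5: tctggatgGGACTgcagaatg
Atg7: tcagcgcaGGACTggaccgca
On GRCm38 they lie at chr2:91917552-91917572 (plus strand, coding part of exon 18 of 18), chr11:50200370-50200390 (minus strand, 3' UTR in exon 8 of 8), chr11:101289836-101289856 (minus strand, coding, exon 11 of 12), chr10:44303709-44303729 (plus strand, coding, exon 5 of 8) and chr6:114859057-114859077 (plus strand, 3' UTR in exon 20 of 20). The A of the *Atg7* site lies 46 bases past the first base of the stop codon. In *Ambra1*, *Becn1* and *Atg5* it lies 259, 230 and 358 bases before it, and in *Sqstm1* 412 bases past it.

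Promoter windows of 300 bases (250 before and 50 after the start, RefSeq, GRCm38.p6) were found for 8 of the 10 genes, all except *Map1lc3a* and *Becn1*. The palindrome CACGTG, the core of the element that TFEB binds, was in 7.15% of 32851 promoter windows, and the GC box GGGCGG, on either strand, in 35.7%. CACGTG was found once in *Atg5* and once in *Atg7*, whose RefSeq window lies inside the gene span used for counting and not at its edge. No CACGTG was found in the windows of *Ambra1*, *Sqstm1*, *Ulk1*, *Map1lc3b*, *Gabarapl1* or the 3 windows of *Tfeb*. GGGCGG was found 5 times in *Ulk1*, 3 times in *Sqstm1*, 2 times in *Gabarapl1*, 1 time each in *Atg5* and *Map1lc3b*, and 2, 1 and 1 times in the windows of *Tfeb*, and not in those of *Ambra1* and *Atg7*, so genes that rose and genes that fell by L2C both held it. Shown are *Atg5*, whose RNA was high in oocytes and low at L2C, and *Ulk1* and *Map1lc3b*, whose RNA rose at L2C, with CACGTG in capitals.
Atg5 (chr10:44268089-44268388, plus strand): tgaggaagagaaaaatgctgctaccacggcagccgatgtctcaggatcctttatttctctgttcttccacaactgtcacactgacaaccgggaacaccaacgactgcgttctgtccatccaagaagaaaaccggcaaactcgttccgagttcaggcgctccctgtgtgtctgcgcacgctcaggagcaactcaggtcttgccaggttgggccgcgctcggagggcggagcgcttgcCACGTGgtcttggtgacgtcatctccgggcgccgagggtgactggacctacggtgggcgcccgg
Ulk1 (chr5:110810032-110810331, minus strand): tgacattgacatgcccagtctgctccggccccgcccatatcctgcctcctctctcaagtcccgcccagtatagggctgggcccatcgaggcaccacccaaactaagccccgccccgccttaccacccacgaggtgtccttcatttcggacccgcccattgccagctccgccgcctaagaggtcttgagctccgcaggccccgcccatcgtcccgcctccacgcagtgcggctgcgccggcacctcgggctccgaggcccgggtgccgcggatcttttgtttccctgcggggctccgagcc
Map1lc3b (chr8:121590188-121590487, plus strand): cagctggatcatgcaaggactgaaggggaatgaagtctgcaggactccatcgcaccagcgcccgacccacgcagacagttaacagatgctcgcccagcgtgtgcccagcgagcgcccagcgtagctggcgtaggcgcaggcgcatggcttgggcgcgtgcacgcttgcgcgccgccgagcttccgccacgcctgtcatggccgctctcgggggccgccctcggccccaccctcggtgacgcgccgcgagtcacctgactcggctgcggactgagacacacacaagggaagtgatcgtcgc

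The SLIM-seq libraries held 11107421 to 39739950 estimated counts on whole gene spans, introns included, and the 5 KD and Ctrl libraries that cover the whole annotation held 8696476 to 14500548 counts on exons. The counts of KD replicate 3 end on chromosome 7, so *Ambra1*, *Atg7*, *Ulk1*, *Map1lc3a* and *Gabarapl1* were compared in 3 KD and 3 Ctrl libraries and the other 5 in 2 KD and 3 Ctrl libraries. Oocyte markers (*Zp3*, *Gdf9*, *Bmp15*, *Mos*, *Oosp1*) summed to 6365 to 7253 CPM (the share of a library's counts, scaled to 1000000) in MII inputs and 560.3 to 592 CPM in L2C inputs, and all 5 were detected in each group. Markers of L2C embryos (*Zscan4c*, *Zscan4d*, *Zfp352*, *Tdpoz4*, *Tcstv3*) summed to 6.00 to 6.78 CPM in MII inputs and 268 to 387 CPM in L2C inputs. Of 8 cumulus cell markers, 4 exceeded 1 CPM in MII and L1C inputs and 2 in L2C inputs, with sums of 41.7 to 47.7, 31.1 to 32.0 and 3.51 to 4.43 CPM, and *Ptx3* was at 0 in the inputs of all 3 stages. *Ythdc1* stood at 498, 521 and 493 CPM of the merged table in KD and 1114, 1138 and 1048 CPM in Ctrl libraries, a 2.01-fold lower level (SE 0.06 on the log2 scale, edgeR adjusted p 1.3e-10). The guides, as listed by the study, are antisense to *Ythdc1* mRNA.
crRNA 1: cctcattctcagtgttgttgccc
crRNA 2: aattcatcatcctgttctggtac
crRNA 3: ctctcagaaccatctggtgtagg

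From MII to L2C, *Atg7*, *Ulk1*, *Map1lc3a*, *Map1lc3b* and *Tfeb* rose in the inputs and *Sqstm1*, *Becn1* and *Atg5* fell. A change was called at a Benjamini-Hochberg adjusted p under 0.05 in the quasi-likelihood test of edgeR, adjusted over all genes tested, and log2 changes were scaled by TMM (trimmed mean of M-values), a scaling to the bulk of genes. Between L1C and L2C, 6 of the other 9 genes rose (*Becn1*, *Atg7*, *Ulk1*, *Map1lc3a*, *Map1lc3b*, *Tfeb*), against 44.1% of all genes tested, and 3 fell (*Sqstm1*, *Atg5*, *Gabarapl1*), against 38.8%. All 10 genes passed the filter on low counts of each SLIM-seq fit, but in the inputs *Tfeb* would not have passed without its L2C libraries and *Gabarapl1* not without those of L1C, the stages where they are high, so their calls in the inputs are descriptions and lend no support. The median log2 change of the 9 genes, with *Tfeb* and *Gabarapl1* included, was 1.41, beside 0.17 over all genes. Between MII and L1C, 1 rose (*Map1lc3a*; 31.9% of all genes) and 4 fell (*Becn1*, *Atg5*, *Ulk1*, *Map1lc3b*; 24.3%). Between MII and L2C, 5 rose (47.5% of all genes) and 3 fell (37.1%), and *Gabarapl1* did not pass. Each of these comparisons called the larger part of all genes, so a called member is no exception in this table. The values are shares of bulk libraries, in which fewer cells of a type and less RNA per cell cannot be told apart. For its RNA-seq libraries the paper gives an oligo-dT primer, which binds poly(A) tails. The part of tail length in these shares was not tested.

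**Figure D1:**
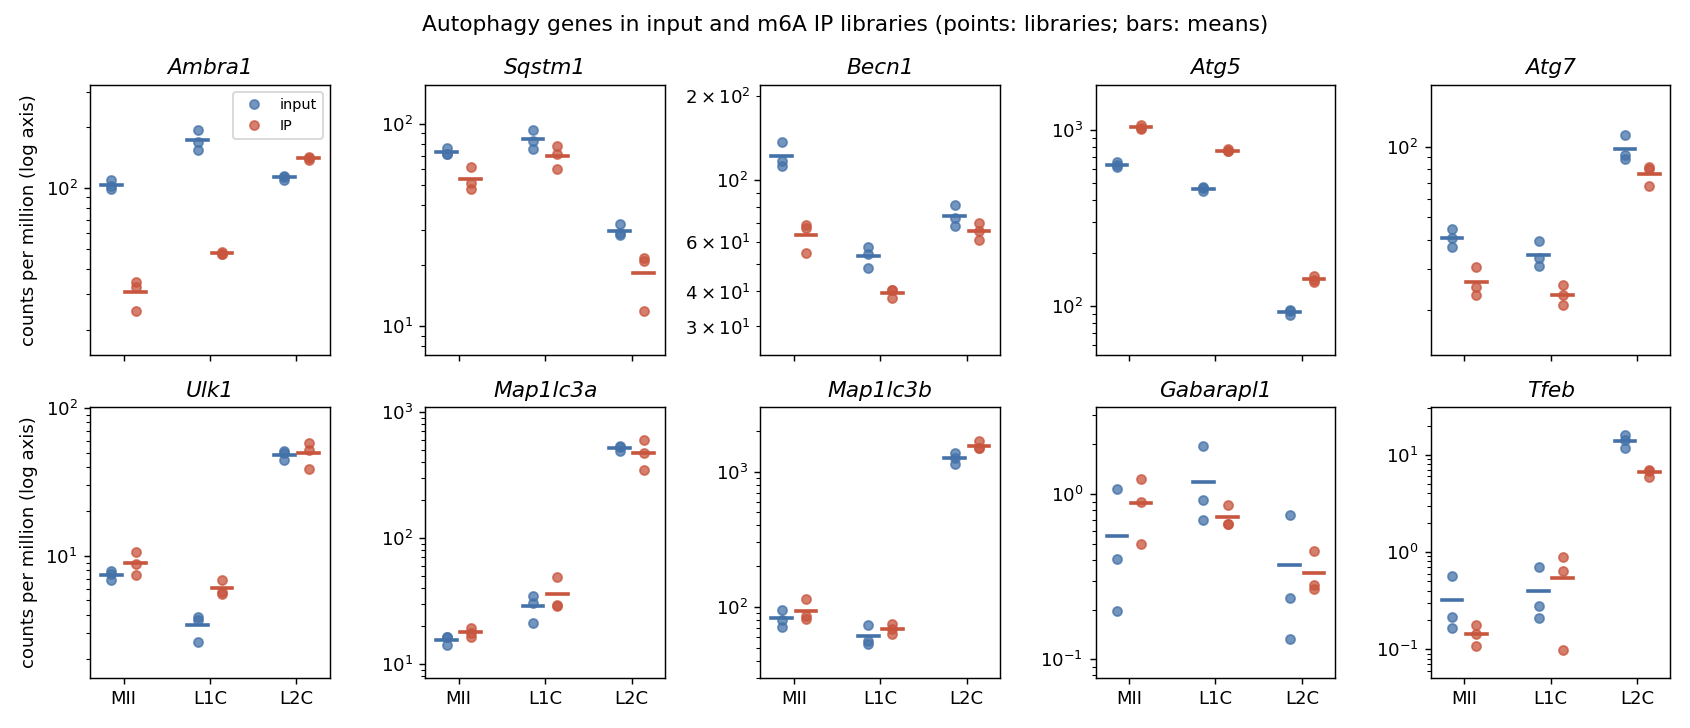
CPM (log axis) of the 10 genes in the 3 input (blue) and 3 IP (red) libraries of MII, L1C and L2C, with bars at the means. *Ulk1*, *Map1lc3a*, *Map1lc3b* and *Tfeb* stand far above their earlier levels at L2C, while *Atg5* and *Sqstm1* stand below them.

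IP against input was compared within each stage, and the log2 values of IP enrichment were again scaled by TMM. At MII, 1 of the 10 genes was higher in the IP (*Atg5*), against 17.7% of all genes, and 4 were lower (*Ambra1*, *Sqstm1*, *Becn1*, *Atg7*), against 21%. At L1C, 2 of the other 9 were higher (*Atg5*, *Ulk1*; 15.8% of all genes) and 3 lower (*Sqstm1*, *Becn1*, *Atg7*; 18.2%). At L2C, *Atg5* was higher (22% of all genes) and *Sqstm1*, *Becn1*, *Atg7* and *Tfeb* were lower (22%). Thresholds for m6A-tagged RNA taken in part from the study (log2 IP/input above 0, unadjusted P under 0.05, more than 1 count in each input) were applied to the edgeR fit. The study used DESeq2, a separate threshold for genes without a P value and a requirement on replicates, which were not applied here. By these thresholds the tagged members were *Atg5* at all 3 stages and *Ulk1* at L1C, where they tagged 19.5% of all genes at MII, 18.9% at L1C and 24.3% at L2C. TMM placed the log2 IP/input of every gene -0.24, -0.30 and -0.25 away from scaling by library size at MII, L1C and L2C, so values near 0 change sign with the scaling. The median log2 IP/input of the counted members, in the order of the stages, came to -0.37, -0.12 and -0.40, beside 0, 0.067 and 0.087 over all genes.

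A change of enrichment between stages was tested as an interaction of stage and IP. For the 9 genes other than *Ambra1*, 0 passed from MII to L1C (higher 3.13% and lower 4.21% of all genes) and 0 from L1C to L2C (higher 5% and lower 4.47%). With edgeR, 1 of the 9 (*Becn1*) and 2 of the 9 (*Ulk1*, *Tfeb*) had an unadjusted p under 0.05 in these comparisons, and DESeq2 called 0 and 2 of them, again *Ulk1* and *Tfeb*, both lower at L2C. From MII to L2C, *Becn1* was higher (11.1% of all genes) and none of the 9 was lower (9.21%).

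**Figure D2:**
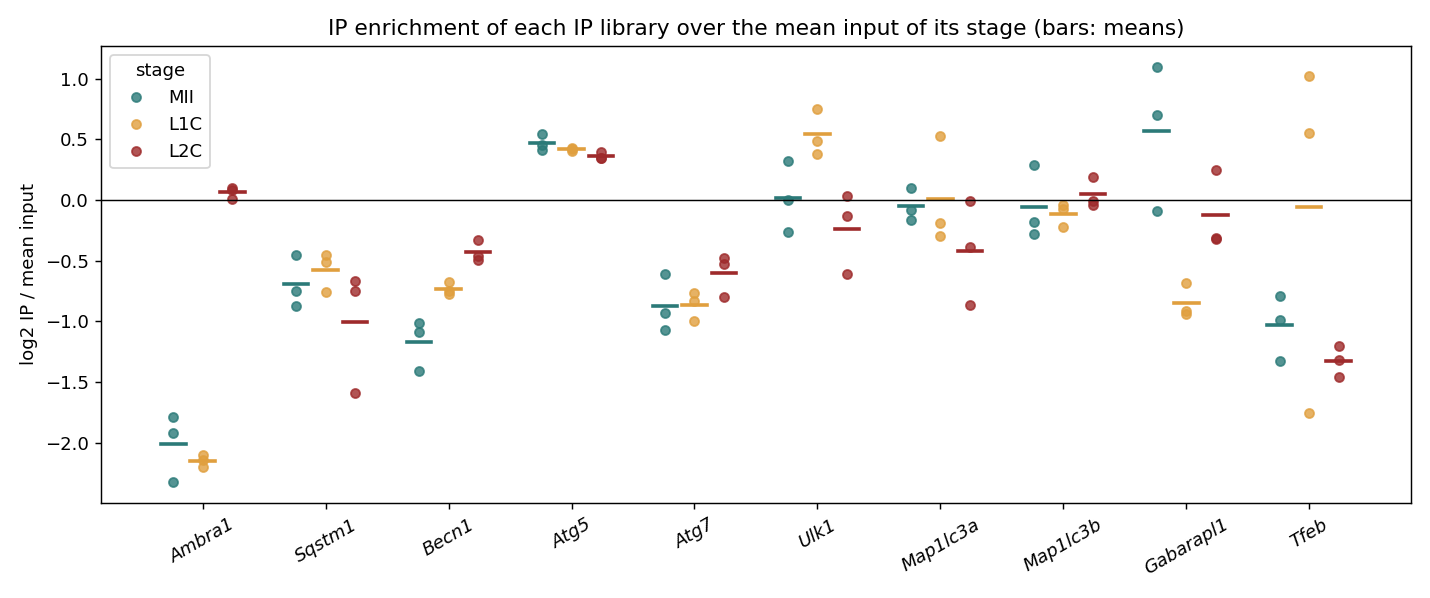
Log2 ratio of each IP library to the mean input of its stage, on the TMM scale, for the 10 genes at MII (green), L1C (yellow) and L2C (dark red), with bars at the means of 3 libraries. *Ambra1*, chosen for this change, moves from about -2 at MII and L1C to about 0 at L2C, while *Atg5* stays above 0 and *Sqstm1* below 0 in all libraries.

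*Ambra1*, the scaffold gene on chromosome 2 (91730134 to 91918849, GRCm38, plus strand), had its highest input level at L1C and its highest IP level at L2C. Its inputs held 109, 103 and 99.4 CPM at MII, 154, 169.9 and 195 CPM at L1C and 115, 114 and 110.2 CPM at L2C. The L1C inputs lay above all others, and those of MII and L2C did not overlap although they were close. The IP libraries gave 32.4, 34.4 and 24.8 CPM at MII, 47.5, 48.6 and 47.5 CPM at L1C and 142, 138 and 142 CPM at L2C. Every IP library lay below every input at MII and L1C, and every IP library above every input at L2C on the CPM scale, before TMM. At MII, with libraries the choice of the gene did not use, the log2 ratio of IP to input came to -2.00 (SE 0.13, edgeR adjusted p 4.6e-10). At L1C it was -2.15 (SE 0.12) and at L2C 0.064 (SE 0.12), so that after TMM scaling the IP and input levels at L2C were about equal. The rise by 2.22 from L1C to L2C (SE 0.17) that chose the gene is exceeded by 593 of 21950 genes tested, 280 of them protein-coding. From MII to L2C the enrichment differed by 2.06 (SE 0.17), and from MII to L1C by -0.16 (SE 0.17). Input changes were 0.69 (SE 0.12) from MII to L1C and -0.71 (SE 0.12) from L1C to L2C. No annotated gene overlaps its span.

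*Becn1*, which encodes the core of the lipid kinase complex that Ambra1 binds (chromosome 11, 101285952 to 101302286, minus strand), was lower in the IP than in input at all 3 stages, and its IP enrichment rose between MII and L2C. The inputs held 136, 112 and 117 CPM at MII, 54.3, 48.6 and 57.5 CPM at L1C and 68.2, 81.5 and 73.1 CPM at L2C. The IP libraries held 67.5, 69.1 and 55.0 CPM at MII, 40.4, 40.3 and 37.9 CPM at L1C and 61.3, 65.7 and 70.2 CPM at L2C. IP and input did not overlap at MII and L1C and came close at L2C, where the highest IP library lay above the lowest input. For MII its log2 IP/input came to -1.17 (SE 0.12, edgeR adjusted p 3.9e-07), for L1C to -0.74 (SE 0.12, adjusted p 0.00013) and for L2C to -0.43 (SE 0.12, adjusted p 0.0085). Scaled by library size alone, the L2C value was -0.18 and did not pass (edgeR adjusted p 0.22). From MII to L2C the enrichment rose by 0.74 (SE 0.17, edgeR adjusted p 0.0051). This change passed in all alternatives run, with adjusted p from 0.0026 to 0.045. Input level fell from MII to L1C by 1.24 on the log2 scale (SE 0.13, edgeR adjusted p 3.1e-06) and rose again by 0.38 to L2C (SE 0.13, edgeR adjusted p 0.015). The later step was lost with the stages compared alone and without L1C input replicate 2 or without L2C input replicate 2. *Cntd1* overlaps much of the *Becn1* span on the other strand and stood at 1.03 to 12.2 CPM in the mean inputs of the stages.

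*Ulk1*, the gene of the initiating kinase (chromosome 5, 110784488 to 110810097, minus strand), was low in oocytes, lower at L1C and rose at L2C. The inputs held 7.9, 7.56 and 6.91 CPM at MII, 2.63, 3.87 and 3.7 CPM at L1C and 44.4, 51.2 and 49.3 CPM at L2C, with no overlap between stages. The first step was a fall by 1.19 on the log2 scale (SE 0.18, edgeR adjusted p 8e-05) and the next a rise by 3.74 (SE 0.18, edgeR adjusted p 1.5e-10), which is 13.4-fold. The IP libraries held 8.78, 10.7 and 7.43 CPM at MII, 5.54, 5.66 and 6.91 CPM at L1C and 57.7, 38.5 and 52.3 CPM at L2C. The IP libraries lay above the inputs at L1C and overlapped them at MII and L2C. The L1C value, 0.55 (SE 0.20, edgeR adjusted p 0.044), rested on 63 to 238 counts per library. It did not pass with either of L1C inputs 1 and 3 or any 1 of the 3 L1C IP libraries left out, nor with no filter or the stage's own libraries alone, and its adjusted p ran from 0.0017 to 0.19 over all alternatives.

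*Atg5*, part of the conjugate that attaches Atg8 proteins to lipid (chromosome 10, 44268358 to 44364291, plus strand), fell at both steps and was higher in the IP than in input at each stage. Its inputs held 659.8, 611 and 627 CPM at MII, 469, 447 and 470.0 CPM at L1C and 93.4, 94.6 and 88.9 CPM at L2C, a fall at each step with no overlap. The steps were -0.50 on the log2 scale (SE 0.10, edgeR adjusted p 0.00089) and then -2.42 (SE 0.11, edgeR adjusted p 6.4e-11), and over both steps the level fell 7.58-fold. The IP libraries held 1025, 1058 and 1011 CPM at MII, 774, 753 and 752 CPM at L1C and 137, 148 and 139.6 CPM at L2C, in every library above every input of the stage. For MII its log2 IP/input came to 0.47 (SE 0.09, edgeR adjusted p 0.00023), for L1C to 0.42 (SE 0.09, adjusted p 0.00093) and for L2C to 0.36 (SE 0.09, adjusted p 0.0025). The change of its enrichment from MII to L2C was -0.11 (SE 0.12, edgeR adjusted p 0.61). With no filter on low counts the L2C enrichment did not pass (edgeR adjusted p 0.094).

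*Atg7*, which encodes the activating enzyme of the conjugation chain (chromosome 6, 114643097 to 114860614, plus strand), rose at L2C and was lower in the IP at each stage. The inputs held 44.3, 40.6 and 37.3 CPM at MII, 30.8, 33.5 and 39.4 CPM at L1C and 88.9, 112 and 92.2 CPM at L2C, and the MII and L1C libraries overlapped. The rise from L1C to L2C was 1.41 on the log2 scale (SE 0.15, edgeR adjusted p 4.5e-07). The IP libraries held 25.1, 30.5 and 23.2 CPM at MII, 25.7, 23.3 and 21.0 CPM at L1C and 81.8, 68.2 and 80.3 CPM at L2C, below the inputs in all libraries of each stage. For MII its log2 IP/input came to -0.86 (SE 0.15, edgeR adjusted p 9.2e-05), for L1C to -0.87 (SE 0.15, adjusted p 0.00011) and for L2C to -0.60 (SE 0.14, adjusted p 0.0022). Of the processed pseudogenes inside its span, *Gm19040* had at most 1.81 CPM in the mean inputs and *Gm44331* and *Gm44332* were at 0 there.

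*Map1lc3a* and *Map1lc3b* encode LC3A and LC3B, Atg8 proteins that are joined to the membrane lipid. *Map1lc3b* (chromosome 8, 121590361 to 121598760, plus strand) stood at 95.5, 79.9 and 71.4 CPM in MII inputs, 53.4, 56.0 and 72.9 CPM in L1C inputs and 1146, 1369.6 and 1259 CPM in L2C inputs. All L2C libraries lay far above the earlier ones, which overlapped each other. The rise from L1C was 4.28 on the log2 scale (SE 0.17, edgeR adjusted p 2.2e-11), or 19.4-fold, after a fall by 0.49 from MII to L1C (SE 0.15, edgeR adjusted p 0.014) that was lost without MII input replicate 1 and without L1C input replicates 1 or 2. *Map1lc3a* (chromosome 2, 155276297 to 155278073, plus strand) rose at both steps, with 14.1, 16.3 and 16.4 CPM at MII, 21.0, 34.5 and 30.2 CPM at L1C and 489, 523 and 541 CPM at L2C and no overlap. On the log2 scale it rose by 0.82 (SE 0.16, edgeR adjusted p 0.00071) and 4.09 (SE 0.17, edgeR adjusted p 3.8e-11). Neither gene passed in the IP at any stage. The log2 IP/input of *Map1lc3b* was -0.051, -0.12 and 0.046 at MII, L1C and L2C (SE 0.16, 0.16 and 0.15), and that of *Map1lc3a* was -0.046, 0.038 and -0.38 (SE 0.23, 0.22 and 0.21). *Gm20388*, an annotated gene whose 4435-kb span holds all of *Map1lc3b*, took 441 CPM in the mean MII inputs, 2052 CPM at L1C and 2031 CPM at L2C, and 0 counts on its exons in the KD and Ctrl libraries. *Zcchc14*, on the other strand, overlaps 58 bases of the *Map1lc3b* span. It had 6.28, 0 and 0 CPM in the mean inputs of MII, L1C and L2C, and 1812 exon counts over the KD and Ctrl libraries that cover the whole annotation. How reads of *Map1lc3b* were shared with these genes by the counting was not tested.

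*Gabarapl1*, a further Atg8-family gene (chromosome 6, 129533160 to 129542346, plus strand), was close to the limit of detection. It had 3.65 to 37 estimated counts in the 9 inputs, with 1.07, 0.406 and 0.197 CPM at MII, 0.915, 0.7 and 1.95 CPM at L1C and 0.133, 0.751 and 0.236 CPM at L2C. The stages overlapped. The fitted fall from L1C to L2C was -1.83 on the log2 scale (SE 0.66), and its call was lost without L1C input replicate 3 or without L2C input replicates 1 or 3. For MII its log2 IP/input came to 0.36 (SE 0.59), for L1C to -1.01 (SE 0.56) and for L2C to -0.40 (SE 0.67), and no difference was detectable at this depth.

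*Sqstm1*, the gene of the cargo receptor p62 (chromosome 11, 50199366 to 50210827, minus strand), did not pass between MII and L1C (log2 change 0.15, SE 0.12) and fell by L2C. The inputs held 76.3, 71.3 and 71.5 CPM at MII, 75.4, 82.7 and 94.1 CPM at L1C and 29.0, 32.1 and 28.2 CPM at L2C. The MII and L1C libraries overlapped and those of L2C lay below them. From L1C to L2C the level fell by 1.59 on the log2 scale (SE 0.13, edgeR adjusted p 2.6e-08), and from MII to L2C it fell 2.72-fold. The IP libraries held 51.3, 61.3 and 47.9 CPM at MII, 77.8, 70.9 and 60.2 CPM at L1C and 21.8, 12.0 and 21.0 CPM at L2C, below the inputs at MII and L2C and overlapping them at L1C. L2C IP replicate 2, the library with the fewest counts, gave the lowest value. For MII its log2 IP/input came to -0.68 (SE 0.17, edgeR adjusted p 0.0039), for L1C to -0.57 (SE 0.17, adjusted p 0.014) and for L2C to -0.93 (SE 0.18, adjusted p 0.00036). The L1C value was lost without L1C input replicate 3 or L1C IP replicate 3, and scaled by library size it was -0.27 (edgeR adjusted p 0.2). Of the 10 genes, those with more GGACT per kb than the upper quartile of all genes are *Ambra1*, *Sqstm1*, *Atg7*, *Gabarapl1* and *Tfeb*. Of these *Sqstm1*, *Atg7*, *Gabarapl1* and *Tfeb* were not called higher in the IP at any stage, nor was *Ambra1* at MII. Only 17.7%, 15.8% and 22% of all genes were called higher at MII, L1C and L2C. *Gabarapl1* and, before L2C, *Tfeb* had too few counts for a difference to be detected. A link between GGACT and IP enrichment was not tested. *Mrnip*, on the other strand, overlaps 750 bases of the *Sqstm1* span and stood at 53.5 to 76.2 CPM in the mean inputs.

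*Tfeb*, the gene of a transcription factor of lysosome and autophagy genes (chromosome 17, 47737030 to 47792419, plus strand), was near 0 until L1C. It had 4.00, 12.0 and 4.00 counts in MII inputs, 5.00, 6.00 and 13.1 in L1C inputs and 325, 317 and 542 in L2C inputs. These are 0.165, 0.571 and 0.216 CPM at MII, 0.208, 0.28 and 0.693 CPM at L1C and 11.9, 15.9 and 14.2 CPM at L2C, and the L2C libraries stood clear of the others. The fitted rise from L1C to L2C was 5.10 on the log2 scale (SE 0.39), given with no p since the gene would not have passed the filter on low counts without the L2C libraries. At L2C its IP libraries, at 7.00, 6.76 and 5.97 CPM, lay below the inputs, a log2 difference of -1.34 (SE 0.36, edgeR adjusted p 0.0053). At MII and L1C, with 2 to 24 counts per IP library, no difference was detectable.

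In the *Ythdc1* knockdown the genes moved in both directions. Among the 5 genes of the merged table (median log2 change 0.57, beside -0.062 over its genes), 4 were higher in KD (*Atg7*, *Ulk1*, *Map1lc3a* and *Gabarapl1*, the last of which passed the filter on low counts through the KD libraries alone), where 33.5% of all genes of the table were higher and 37.4% lower, and none was lower. Beyond the table, *Map1lc3b* was higher (30.5% of all genes) and *Sqstm1*, *Becn1* and *Atg5* were lower (36.4%), with a median of -0.22 for the 5 genes and -0.088 for all. The study's thresholds for changed genes (unadjusted P under 0.05, log2 change above 1 in size), which it used with DESeq2, were applied to the edgeR fit and kept *Gabarapl1* as higher (14.7% of the table higher, 22.5% lower) and *Sqstm1* as lower (14.4% higher, 24.5% lower in the whole annotation). KD libraries also differed in stage markers: those of L2C embryos summed to 264 to 292 CPM in KD and 894 to 935 CPM in Ctrl, and oocyte markers to 627 to 672 and 1418 to 1514 CPM, with all 5 of each list detected in both. Their part in the changes of the autophagy genes was not tested. Cumulus cell markers summed to 7.71 to 9.6 CPM in KD and 8.55 to 11.8 CPM in Ctrl, and 3 of the 8 were at 0 in each group.

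*Sqstm1* had 34 and 21 counts in the KD libraries and 95, 70 and 68 in Ctrl, or 3.02 and 2.19 CPM against 6.55, 5.42 and 7.82 CPM of whole libraries. The groups did not overlap, and KD was lower by 1.24 on the log2 scale (SE 0.28, edgeR adjusted p 0.0012). *Becn1* stood at 37.1 and 38.8 CPM in KD and 58.3, 56.4 and 55.5 CPM in Ctrl, also without overlap (log2 change -0.51, SE 0.10, edgeR adjusted p 0.00037). *Atg5*, at 119 and 118 CPM in KD and 140.3, 137 and 161 CPM in Ctrl, was lower by 0.22 on the log2 scale (SE 0.09, edgeR adjusted p 0.038). This last call was lost with DESeq2 and when either KD library was left out, with adjusted p from 0.0091 to 0.19.

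*Map1lc3a* had 163, 225 and 179 CPM of the merged table in KD and 115, 108 and 141 CPM in Ctrl, with every KD library above every Ctrl library, higher by 0.76 on the log2 scale (SE 0.11, edgeR adjusted p 7.1e-06). *Map1lc3b*, at 9138 and 9449 CPM in KD and 7092, 7068 and 8181 CPM in Ctrl, changed by 0.40 (SE 0.06, edgeR adjusted p 4.4e-05). *Atg7* had 36.9, 35.7 and 36.6 CPM in KD and 26.0, 26.2 and 28.4 CPM in Ctrl, without overlap (log2 change 0.57, SE 0.13, edgeR adjusted p 0.00085). *Gabarapl1* had 15, 12 and 13 counts in the 3 KD libraries and 0 in each Ctrl library. Against the limit that 0 counts allow over the Ctrl group (3 counts), it was at least 13.4-fold higher in KD. Its antisense neighbour *1700101I11Rik* had 0 counts in the 5 whole libraries, where exon counts were made without regard to strand. It passed the filter on low counts through the KD libraries alone, so that the fit had to find a difference, and no p is given.

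*Ulk1* overlapped between the groups, with 148, 172 and 163 CPM in KD and 134, 161 and 156 CPM in Ctrl, and its call (log2 change 0.22, SE 0.09, edgeR adjusted p 0.034) was lost with library-size scaling, with protein-coding genes alone, over the whole annotation, and without KD replicate 2, KD replicate 3 or Ctrl replicate 1. *Ambra1* had 43.7, 46.2 and 42.3 CPM in KD and 40.1, 37.8 and 44.9 CPM in Ctrl. The groups overlapped, and the log2 change of 0.23 (SE 0.12) did not pass (edgeR adjusted p 0.092). Without Ctrl replicate 3 it was 0.29 and passed (edgeR adjusted p 0.045). *Tfeb*, with 17 and 18 counts in KD and 15 to 19 in Ctrl, did not pass (log2 change 0.37, SE 0.42, edgeR adjusted p 0.45).

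**Figure D3:**
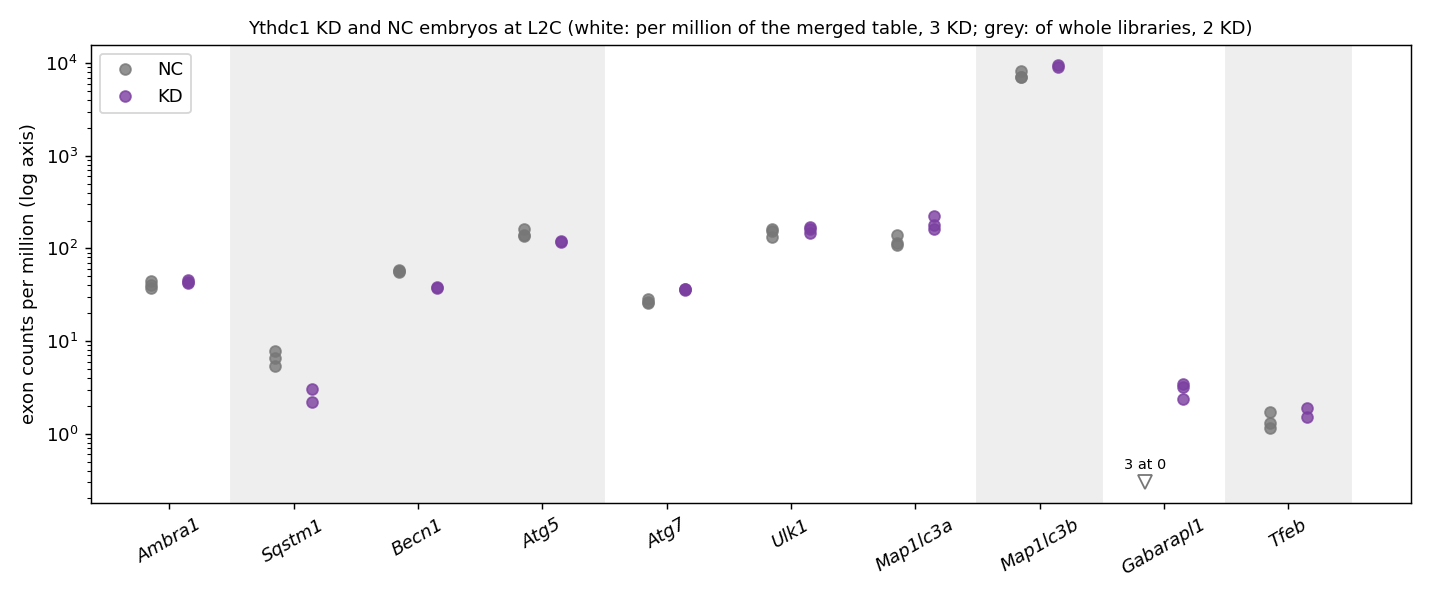
Exon CPM (log axis) of the 10 genes in Ctrl (NC, grey) and KD (purple) libraries at L2C, each point a library. White columns are scaled to the merged table (3 against 3) and grey columns to whole libraries (2 against 3). KD points of *Sqstm1* and *Becn1* lie below, and those of *Map1lc3a* and *Atg7* above, all Ctrl points, and *Gabarapl1* is at 0 in the 3 Ctrl libraries.

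Levels of the genes are set side by side per kb of all annotated exons in the Ctrl libraries, which were counted on exons. In this scale *Map1lc3b* stood first at 991 ± 84.6 CPM per kb (mean ± SD, n = 3), far above *Atg5* at 62.2 ± 5.43 and *Map1lc3a* at 38.7 ± 5.54. *Ulk1* (8.71 ± 0.83) and *Becn1* (8.03 ± 0.197) followed with overlapping libraries. *Ambra1* (2.51 ± 0.227) and *Sqstm1* (1.97 ± 0.358) also overlapped each other, and *Atg7* (1.45 ± 0.0731), *Tfeb* (0.247 ± 0.0515) and *Gabarapl1* (0 counts in each library) came last. In oocytes this order could not be set, because the SLIM-seq counts cover introns. The annotated exons of *Atg7* add up to 6.968 kb and those of *Becn1* to 7.065 kb. Their longest coding transcripts have 3895 and 4365 bases. Whether genes with close levels keep their order when scaled by transcript length was not tested.

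Counts on whole spans in the L2C inputs and on exons in the Ctrl libraries, from different embryos, stand side by side as follows. *Ambra1* had 113 CPM in the L2C inputs and 15.4 CPM in Ctrl, and its span is 30.8 times its exons. *Atg7* had 97.9 and 10.1 CPM, *Tfeb* 14.0 and 1.4 CPM, and *Sqstm1* 29.8 and 6.6 CPM. *Map1lc3a* differed by as much, 518 against 45.7 CPM, with a span of 1.5 times its exons, and *Map1lc3b* differed the other way, 1258 against 7447 CPM. *Atg5*, whose span is 40.8 times its exons, had 92.3 and 146 CPM, *Ulk1* 48.3 and 56.5 CPM, and *Becn1* 74.3 and 56.8 CPM. The median log2 ratio over 11078 protein-coding genes was 0.20. By groups of 25% of genes in the order of span relative to exons it was 0.47, 0.25, -0.0049 and, for the largest, 0.15, beside 2.88 for *Ambra1*, 3.28 for *Atg7* and -0.66 for *Atg5*, the members with the largest spans relative to exons, and 3.50 for *Map1lc3a* and -2.57 for *Map1lc3b*, those with the smallest. The part of intronic reads, of injection and of the counting method in these gaps was not tested.

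For a view beyond the 10, 75 other genes of the pathway were counted in 8 lists by role. In the sentences that follow, levels are mean ± SD of 3 libraries, log2 values are given ± SE, and each named change passed an edgeR adjusted p of 0.05. Between L1C and L2C, 34 of the 75 rose and 28 fell in the inputs, with a median log2 change of 0.23, near the 44.1% and 38.8% of all genes. Of the genes of lipid supply and phagophore growth 8 of 10 were higher and 1 lower, with a median of 2.31. *Wdr45b*, whose product binds the marked membrane, rose from 2.92 ± 0.357 to 227 ± 14.9 CPM (log2 change 6.18 ± 0.17). In the lysosome list, with 6 of 12 higher and 5 lower, the lysosome membrane gene *Lamp2* rose from 14.5 ± 1.79 to 303 ± 35.8 CPM (log2 change 4.29 ± 0.15) and the protease gene *Ctsl* from 4.12 ± 1.35 to 225 ± 3.63 CPM (log2 change 5.69 ± 0.20).

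Falls with the smallest P values included *Rubcn*, an inhibitor of the Beclin 1 complex, from 193 ± 29.8 to 15.8 ± 0.958 CPM (log2 change -3.71 ± 0.14). The receptor genes *Calcoco1* and *Ncoa4*, the latter a receptor for ferritin, fell from 102 ± 18.7 to 8.99 ± 0.615 CPM (log2 change -3.60 ± 0.16) and from 300.3 ± 47.8 to 26.4 ± 5.27 CPM (log2 change -3.60 ± 0.17). Partners and controls of Sqstm1 had 0 of 4 higher and 3 lower, and their median, -1.27, stands beside -1.59 for *Sqstm1* itself. Between MII and L1C, 24 of the 75 rose and 23 fell, beside 31.9% and 24.3% of all genes. *Tsc2* (log2 change 1.79 ± 0.12) and *Tsc1* (1.92 ± 0.15), which encode the inhibitor complex of mTOR, and *Uvrag* (1.51 ± 0.12), of the Beclin 1 complex, rose, while *Mtor* itself (-1.71 ± 0.14), *Atg16l1* (-2.61 ± 0.14), the partner of the Atg5 conjugate, and *Tollip* (-2.02 ± 0.15) fell.

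In the IP at MII 13 of the 75 were higher and 30 lower, beside 17.7% and 21% of all genes. At L1C the counts were 8 and 33, beside 15.8% and 18.2%, and at L2C 16 and 32, beside 22% and 22%. The median log2 IP/input was -0.26, -0.34 and -0.25, beside 0, 0.067 and 0.087 over all genes. *Ppp2ca*, the catalytic subunit of a phosphatase that Ambra1 binds, was higher at all 3 stages, with log2 IP/input of 1.83 ± 0.23, 1.62 ± 0.21 and 2.05 ± 0.20. *Nbr1*, a receptor related to Sqstm1, was lower at all 3, with -2.04 ± 0.10, -1.51 ± 0.10 and -1.20 ± 0.10. *Atg9a*, the membrane protein gene of phagophore growth, was lower at L1C (-1.97 ± 0.15) and L2C (-2.44 ± 0.15), and the Atg8-family gene *Gabarapl2* was higher at L1C (1.02 ± 0.19) and L2C (1.33 ± 0.17). *Ddb1*, part of the ubiquitin ligase that Ambra1 serves, was lower at MII (-2.19 ± 0.15), and *Dynll1*, a dynein light chain gene, was higher at L1C (1.53 ± 0.14). The stages named here follow from the rule of at most 3 genes per direction and mark no difference between stages. In mean CPM the IP lay below input at all 3 stages for *Ddb1* and *Atg9a*, and above it for *Dynll1* and *Gabarapl2*. At L2C the conjugation list had 6 of 11 higher and 2 lower and the initiation list 1 of 10 higher and 7 lower, where all genes had 22% higher and 22% lower, and the counts of the other 6 lists are in the plot of the pathway lists. Enrichment changed from L1C to L2C in 7 of the 75, where 5% of all genes rose and 4.47% fell, with *Atg16l2* (1.53 ± 0.23), *Fundc1* (1.42 ± 0.23) and *Snap29* (1.00 ± 0.17) among 6 that rose and *Atg13* (-0.84 ± 0.22) the one that fell. From MII to L2C 18 rose and 10 fell, beside 11.1% and 9.21% of all genes, and *Atg16l2* (2.23 ± 0.23), *Lamp2* (1.69 ± 0.19) and *Fundc1* (1.64 ± 0.24) had the smallest P values of those that rose. *Tsc1* (-2.11 ± 0.21), *Uvrag* (-1.59 ± 0.17) and *Stx17* (-1.17 ± 0.17) had the smallest P values of those that fell. The same genes had already fallen in enrichment from MII to L1C, *Tsc1* by -2.05 ± 0.21, *Uvrag* by -1.99 ± 0.17 and *Stx17* by -1.09 ± 0.16. Over that step 4 of the 75 rose and 7 fell, beside 3.13% and 4.21% of all genes.

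**Figure D4:**
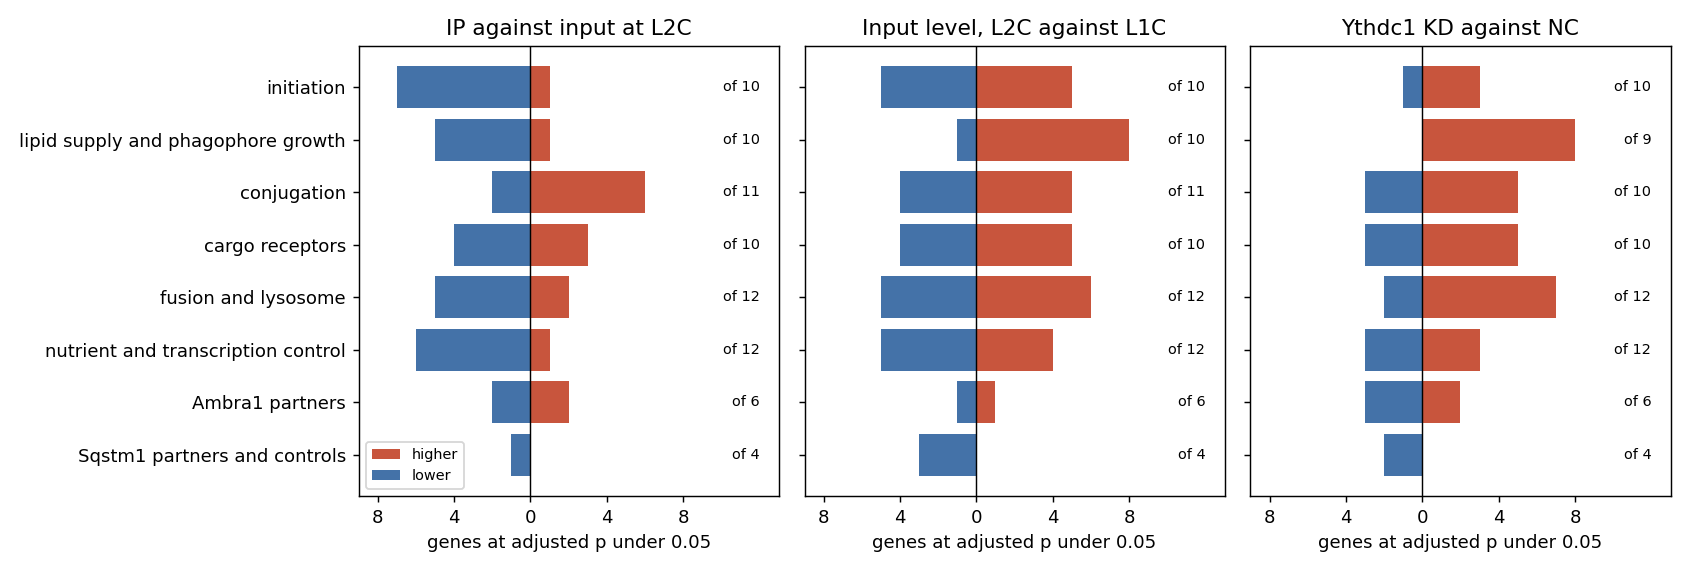
Number of genes of each list that were higher (red, to the right) or lower (blue, to the left) at an edgeR adjusted p under 0.05, out of the genes tested, for IP against input at L2C, the input change from L1C to L2C, and KD against Ctrl. Lipid supply has 8 genes higher in the second and in the third panel, and initiation has 7 lower in the first.

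In the knockdown, 10 of 31 tested genes of the lists within the merged table were higher and 8 lower, beside 33.5% and 37.4% of all genes of the table. Beyond it 23 of 42 were higher and 9 lower, beside 30.5% and 36.4% of all genes. Lipid supply genes were higher in 3 of 3 cases in the table and 5 of 6 beyond it, against the same shares, and lower in none. *Wdr45b* (log2 change 1.43 ± 0.09) and *Atg2a* (1.70 ± 0.11), a lipid transfer protein gene, were among them, as was *Atg3* (1.91 ± 0.11) in conjugation. Of the fusion and lysosome list, *Vamp8* rose (2.27 ± 0.11) and so did *Lamp2* (0.79 ± 0.06), and of the receptors *Tax1bp1* (0.79 ± 0.07). *Fundc1*, a receptor gene for mitochondria, was lower (-1.57 ± 0.09), as were *Traf6* (-3.41 ± 0.30), whose product works with Ambra1 and with Sqstm1, *Ddb1* (-0.44 ± 0.10) and *Atg10* (-1.22 ± 0.23). *Atg4c* was at 0 counts in all KD libraries and at 20 to 37 in Ctrl, at least 30.9-fold lower against the limit of 3 counts over the group, and *Calcoco1* was at 0 in both KD libraries and at 15 to 32 in Ctrl, at least 14.4-fold lower. Both passed the filter on low counts through the Ctrl libraries alone, so their place among the called genes is a description.

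The genes most like *Ambra1* across the 18 SLIM-seq libraries, by Pearson's r of log2 CPM among 15179 protein-coding genes with a mean of at least 10 counts, were *Ipo9* (r = 0.973), *Xpo7* (r = 0.924) and *Vps8* (r = 0.924). Those most like *Sqstm1* were *Natd1* (r = 0.994), *Acot3* (r = 0.987) and *Otoa* (r = 0.986). Among the 10, the r of *Ambra1* was highest with *Atg7* (0.612) and 0.0511 with *Sqstm1*. *Sqstm1* was most like *Atg5* (0.821) and ran opposite to *Map1lc3b* (-0.885), *Map1lc3a* (-0.848) and *Ulk1* (-0.84). These values describe 18 libraries that fall into 6 groups and share stage, IP and depth.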

How the data were processed

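SLIM-seq libraries (18) and KD and Ctrl RNA-seq libraries (6) were grouped by their labels. The authors deposited kallisto estimated counts and TPM for whole gene spans, and HISAT2 and featureCounts (version 2.0.1, exons of the Ensembl 99 annotation of GRCm38, no strand option) counts per gene. The deposited TPM values were not used. The deposited counts of KD replicate 3 and of the merged KD table end on chromosome 7 with 25739 genes, where the other files hold 55471. The columns left without a sample number 0.

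Estimated counts were rounded. Genes were filtered by filterByExpr and tested with edgeR 4.0.16 (R 4.3.3; TMM, quasi-likelihood test, 1 fit over 18 SLIM-seq libraries with 21950 genes for IP enrichment, 1 over the 9 inputs with 19903 genes for input levels, and 1 for each KD set), with Benjamini-Hochberg adjustment over all genes tested. CPM are counts scaled to a library total of 1000000. Alternatives were DESeq2 1.42.0, library size alone, no filter, protein-coding genes only, the stages compared only, a replicate block, call thresholds after those of the study, the KD comparison over the whole annotation, and each library left out. The fits were tested on simulated data. Counts are reads, so limits set from 0 counts cover counting error only.

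The 10 genes and the pathway lists were chosen with earlier results of these data known. Named in addition were, per comparison and direction, at most 3 genes of the pathway lists with the smallest P among those called, the 3 genes most like *Ambra1* and *Sqstm1*, overlapping genes and *Ythdc1*. *Atg4c* and *Calcoco1* in the knockdown are named by the same rule, with their fold against the limit of 3 counts. Sequences come from RefSeq promoters (GRCm38.p6), GENCODE M21 transcripts and the crRNA list of the study.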

Additional observations from a re-analysis of the deposited data

Results flagged for a closer look

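The change of IP enrichment of *Becn1* from MII to L2C, 0.74 on the log2 scale (SE 0.17, edgeR adjusted p 0.0051), was picked out because the test of the difference between these stages itself passed. In every IP library of MII the log2 ratio to the mean input was below that of every IP library of L2C. From MII to L1C the change was 0.43 (SE 0.17, edgeR adjusted p 0.16) and from L1C to L2C 0.31 (SE 0.17, edgeR adjusted p 0.3), and neither step passed alone.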

How the results depend on the processing

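Of 550 alternative values of called members, 518 kept their direction and their side of the threshold, 32 kept the direction and did not pass, and 0 changed direction. These values include the input calls of *Tfeb* and *Gabarapl1* and the KD call of *Gabarapl1*. Those genes passed the filter through the group where they are high, so their share of the total lends no support. Of 702 values of members not called, 641 stayed, 10 passed and 51 changed direction, all of them from values near 0 or with few counts. The replicate numbers did not pair the libraries: the correlation of same-numbered deviations ran from -0.16 to 0.16 over 21 pairs. With the replicate number as a block, *Ulk1* at L1C (0.54, edgeR adjusted p 0.057) and *Atg5* in KD (-0.16, edgeR adjusted p 0.08) did not pass, and the block changed no other call. Counts of members that moved by over 1.5 times were as follows, and every other count stayed within 1 of its value under each alternative. Higher in the IP at L1C were 1 with no filter, with the block and with the stages compared only, and 1 to 2 with a library left out, in place of 2, and at L2C 0 with no filter in place of 1. Lower in enrichment at L2C than at L1C were 2 with DESeq2, 1 with no filter, 1 with the stages compared only and 0 to 1 with a library left out, in place of 0. Under the study's KD thresholds, 1 gene of the KD table was higher in place of 4, and among the 5 genes outside it 0 were higher in place of 1, and 1 was lower in place of 3. With a library left out, 3 to 5 genes of the table were higher. Leaving out a KD library beyond the table leaves 1, whose spread is then taken from the other group. Signs turned for these log2 values. With DESeq2 they were 0.019 and 0.016 for *Map1lc3a* and *Map1lc3b* at MII and -0.021 for the enrichment change of *Tfeb* from MII to L2C. With library size they were 0.19 for *Map1lc3a* and 0.18 for *Map1lc3b* at MII, 0.18 for *Map1lc3b* at L1C, 0.042 for *Ulk1* at L2C, and 0.013 for *Atg5* and 0.061 for *Atg7* in the enrichment change from MII to L1C. With protein-coding genes they were 0.0078 for *Map1lc3a* and 0.0020 for *Map1lc3b* at MII. With the stages compared only they were 0.0011 for *Map1lc3a* at MII, and in enrichment changes -0.0066 for *Map1lc3a* from MII to L1C, -0.020 and -0.072 for *Map1lc3b* from L1C and from MII to L2C, and -0.15 for *Tfeb* from MII to L2C. With no filter the last was -0.018, and with the block *Atg7* from MII to L1C was 0.0045. With a library left out, IP against input ran at MII from -0.13 to 0.17 for *Ulk1*, -0.13 to 0.013 for *Map1lc3a*, -0.25 to 0.084 for *Map1lc3b* and -0.012 to 1.22 for *Gabarapl1*, at L1C from -0.27 to 0.18 for *Map1lc3a*, -0.20 to 0.025 for *Map1lc3b* and -0.18 to 0.93 for *Tfeb*, and at L2C from -0.034 to 0.092 for *Map1lc3b* and -0.80 to 0.41 for *Gabarapl1*. Enrichment changes ran from MII to L1C from -0.10 to 0.13 for *Atg7*, -0.23 to 0.23 for *Map1lc3a* and -0.21 to 0.12 for *Map1lc3b*, and from MII to L2C from -0.046 to 0.28 for *Map1lc3b*, -1.63 to 0.054 for *Gabarapl1* and -0.72 to 0.35 for *Tfeb*. The input change of *Tfeb* from MII to L1C ran from -0.43 to 0.94. The cause of these changes was not tested. *Map1lc3a* at L2C was called lower in the IP with no filter and without L2C IP replicate 1 (-0.61, edgeR adjusted p 0.035). Few counts limit *Gabarapl1* and, before L2C, *Tfeb*.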
